A study of Homo sapiens with 3 samples.

Results

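The miR-29 family was followed in the melanoma cell line SK-MEL-2, an established human line, through the 7 mature miRNAs that its hairpins give: the guide arms hsa-miR-29a-3p, hsa-miR-29b-3p and hsa-miR-29c-3p, and the passenger arms hsa-miR-29a-5p, hsa-miR-29b-1-5p, hsa-miR-29b-2-5p and hsa-miR-29c-5p (the prefix hsa, for human, is left out below). The members were chosen by family name. All 7 are listed in each of the 3 count files, among 2588 human miRNAs. Cells received no treatment (the control) or were held under a plasma jet, which blows partly ionised gas near room temperature, for 3 min or 5 min. RNA was collected on Day 2 in all groups, and "at 3 min" or "at 5 min" below gives the length of exposure. All 3 cultures shared the RPMI-1640 medium with serum and antibiotics. There was 1 library per group, so the ratios have no replicate behind them, no test was possible and no p-value is given. The 95% intervals cover counting error alone, and a ratio sets a library against another rather than a condition against another. The series addressed how plasma acts on the growth of melanoma cells.

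A microRNA is cut from a hairpin precursor as a duplex. The guide strand is kept by an Argonaute protein and pairs with messenger RNAs through its seed, bases 2 to 8, while most copies of the passenger strand are degraded. In the miR-29 family the 3p arm is the guide. The family is known for repressing collagens and other matrix mRNAs, the DNA methyltransferases DNMT3A and DNMT3B, and the survival gene MCL1. It has also been linked to the p53 pathway and to senescence. The family comes from a pair of transcription units. MIR29A (chr7:130876747-130876810, minus strand, GRCh38) and MIR29B1 (chr7:130877459-130877539) lie 648 bases apart. MIR29B1 lies inside an annotated exon of the long noncoding RNA LINC-PINT, and MIR29A shares 2 bases with it. MIR29C (chr1:207801852-207801939, minus strand) and MIR29B2 (chr1:207802443-207802523) lie 503 bases apart in an annotated exon of MIR29B2CHG, their host gene. miR-29b-3p has the same sequence from MIR29B1 and MIR29B2, so its counts cannot be divided between the loci, whereas the 5p arms can.

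The mature sequences are shown 5′ to 3′, from RefSeq on GRCh38.p14, with the seed in capitals, because the guide arms share 1 seed and the passenger arms do not.
miR-29a-3p: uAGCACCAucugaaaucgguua
miR-29b-3p: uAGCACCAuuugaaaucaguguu
miR-29c-3p: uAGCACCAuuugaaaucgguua
miR-29a-5p: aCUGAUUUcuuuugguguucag
miR-29b-1-5p: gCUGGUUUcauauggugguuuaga
miR-29b-2-5p: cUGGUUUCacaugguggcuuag
miR-29c-5p: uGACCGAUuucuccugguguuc

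The 3 guide arms were the only listed miRNAs with a RefSeq sequence to carry the seed AGCACCA, and each passenger arm had a seed that no other such miRNA shared. Counted from the 5′ end, miR-29a-3p and miR-29c-3p differ at 1 of 22 bases, C10U, outside the seed. miR-29c-3p and miR-29b-3p differ at 3 of the first 22 bases, G18A, U21G and A22U. How reads that match more than 1 of these were assigned is not given in the sources used here, so the separate values of miR-29a-3p and miR-29c-3p are uncertain. All 3 guide arms begin with U. Of the passenger arms, miR-29c-5p begins with U, miR-29a-5p with A, miR-29b-1-5p with G and miR-29b-2-5p with C.

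The 4 hairpins are shown with both arms in capitals, the 5p arm first, since the balance of the arms is described further on.
MIR29A: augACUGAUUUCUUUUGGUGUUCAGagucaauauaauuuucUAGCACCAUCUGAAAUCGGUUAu
MIR29B1: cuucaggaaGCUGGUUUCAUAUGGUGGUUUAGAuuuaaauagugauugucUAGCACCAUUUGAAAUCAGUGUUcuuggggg
MIR29B2: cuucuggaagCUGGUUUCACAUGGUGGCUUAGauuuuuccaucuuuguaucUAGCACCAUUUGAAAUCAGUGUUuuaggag
MIR29C: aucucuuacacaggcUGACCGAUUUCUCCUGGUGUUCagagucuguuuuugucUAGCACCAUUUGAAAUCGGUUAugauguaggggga

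Library totals were 1045482 counts in the control, 966943 at 3 min and 615645 with 5 min of plasma, so the 5 min library was the shallowest and 1 count in it was worth 1.62 CPM, the count scaled to a library total of 1000000. A miRNA was set against the rest only if its counts averaged 20 or more across the libraries. This left 231 miRNAs, 4 of them members: the 3 guide arms and miR-29b-1-5p. The other 3 members are described by their counts. The label of the cells was set beside 8 markers listed for melanocytes and melanoma. miR-204-5p had 2608 counts untreated, 2535 at 3 min and 1257 at 5 min, and miR-211-5p 128, 97 and 65. With depth taken into account, their log2 ratios at 5 min over control were -0.30 (-0.40 to -0.20) and -0.22 (-0.68 to 0.22). miR-146a-5p had 1319, 1442 and 1139 counts, a log2 ratio of 0.54 at 5 min over control, and the other 5, members of the miR-506 to miR-514 cluster, were listed at 0 in all 3 libraries.

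miR-29a-3p, by far the most abundant member, was higher in both plasma libraries than in the control. It had 11660 counts in the control, 13661 at 3 min and 11185 at 5 min, or, with depth taken into account, 11153 CPM (95% counting interval 10951 to 11357), 14128 CPM (13892 to 14367) and 18168 CPM (17833 to 18508). None of these intervals overlapped another, and the level was highest in the 5 min library. Scaled by TMM (a trimmed mean of log ratios between libraries), miR-29a-3p was 1.62-fold higher at 5 min than in the control (1.57 to 1.66) and 1.28-fold higher at 3 min (1.25 to 1.31). In order of counts it stood at rank 12 in the 5 min library, rank 16 in the 3 min library and rank 18 in the control.

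miR-29b-3p, the guide arm made from both loci, differed less between the libraries. It had 333, 316 and 236 counts in the control, 3 min and 5 min libraries, or 318.5, 326.8 and 383.3 CPM. The intervals of these 3 levels overlapped, the widest reaching from 336 to 435.5 CPM at 5 min. The scaled ratio was 1.19-fold at 5 min over control (1.01 to 1.42) and 1.04-fold at 3 min over control (0.885 to 1.21). The 5 min value ranged from 1.03 to 1.20 over 7 alternatives, and in 5 of them its interval included 1. Both TMM over all listed miRNAs and TMM with no filter, which gave the same library sizes, are among those 5. The 3 min value lay on either side of 1 depending on the scaling, with a range of 0.984 to 1.03 under the alternatives.

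miR-29c-3p, the guide arm of the chromosome 1 hairpin MIR29C, was scarce. It had 35, 40 and 39 counts in the control, 3 min and 5 min libraries, or 33.5 CPM (23.3 to 46.6), 41.4 CPM (29.6 to 56.3) and 63.3 CPM (45.05 to 86.6). It was 1.88-fold higher at 5 min than in the control (1.16 to 3.05), and 1.25-fold higher at 3 min, with an interval of 0.772 to 2.02 that included 1. For every 100 counts of miR-29a-3p, which differs from it at 1 base, there were 0.300 counts of miR-29c-3p in the control (0.209 to 0.418), 0.293 at 3 min (0.209 to 0.399) and 0.349 at 5 min (0.248 to 0.477). These intervals overlapped, so a difference in the proportion of miR-29c-3p to miR-29a-3p was not detectable at this depth. Whether misassigned miR-29a-3p reads contribute to the miR-29c-3p counts was not tested.

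**Figure D1:**
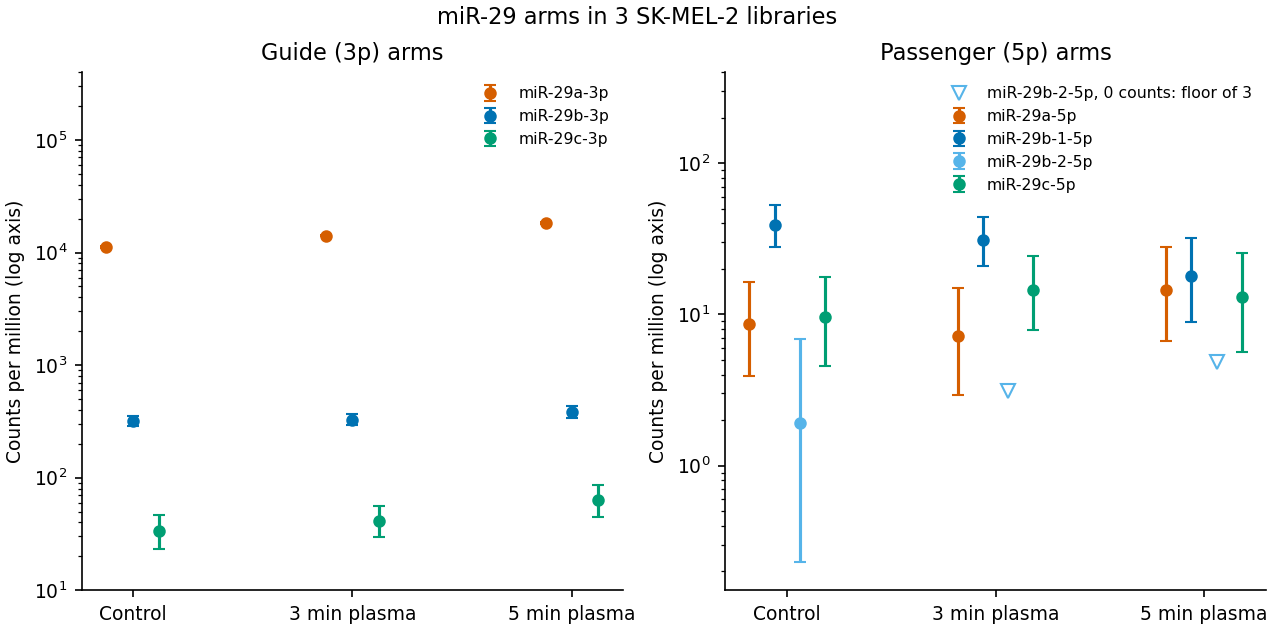
CPM (log axis) of the 3 guide arms (left) and the 4 passenger arms (right) in the control, 3 min and 5 min libraries, with exact 95% Poisson intervals and 1 library per point. Open triangles mark the floor of 3 counts for miR-29b-2-5p where it had 0 counts. miR-29a-3p reaches 18168 CPM at 5 min against 11153 CPM in the control, while miR-29b-1-5p stands at 17.9 CPM at 5 min against 39.2 CPM in the control.

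The family was almost wholly miR-29a-3p. It made up 96.9% of the guide-arm counts in the control (exact 95% interval 96.6 to 97.2), 97.5% at 3 min (97.2 to 97.7) and 97.6% at 5 min (97.3 to 97.9). miR-29b-3p took 2.77% of them in the control (2.48 to 3.08), 2.25% at 3 min (2.02 to 2.51) and 2.06% at 5 min (1.81 to 2.34). The proportion of miR-29a-3p to miR-29b-3p, which needs no scaling between libraries, was 1.35 times as high at 5 min as in the control (1.14 to 1.61) and 1.23 times as high at 3 min (1.05 to 1.45). The proportion of miR-29a-3p to miR-29c-3p at 5 min was 0.861 times that of the control, with an interval of 0.529 to 1.40 that included 1. Together the 3 guide arms held 1.15% of all counts in the control (1.13 to 1.17), 1.45% at 3 min (1.43 to 1.47) and 1.86% at 5 min (1.83 to 1.90). Their scaled sum was 1.61-fold higher at 5 min than in the control (1.56 to 1.65) and 1.27-fold higher at 3 min (1.24 to 1.30), a value set by miR-29a-3p. Without miR-29a-3p, the sum of the other guide arms was 1.26-fold higher at 5 min (1.07 to 1.48) and 1.06-fold at 3 min (0.910 to 1.22). Adapter ligation favours some RNA ends over others, so shares of different miRNAs in a library are shares of reads and not of molecules. The arms are 22 to 24 bases long, and no correction for length was made.

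The passenger arms were rare, and the most abundant of them, miR-29b-1-5p of the chromosome 7 hairpin MIR29B1, was lower with 5 min of plasma. miR-29b-3p, whose counts pool both loci, stood at 1.19-fold, and the guide arm of this hairpin alone could not be measured. miR-29b-1-5p had 41 counts in the control, 30 at 3 min and 11 at 5 min, or 39.2 CPM (28.1 to 53.2), 31.03 CPM (20.9 to 44.3) and 17.9 CPM (8.92 to 32.0). The 5 min and control intervals overlapped slightly, between 28.1 and 32.0 CPM. Its scaled ratio was 0.452 at 5 min over control (0.210 to 0.896), that is, 2.21-fold lower, with bounds of 1.12 and 4.77. At 3 min it was 0.798 of the control, with an interval of 0.481 to 1.31 that included 1.

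Of the other passenger arms, miR-29a-5p had 9, 7 and 9 counts and miR-29c-5p 10, 14 and 8 counts in the control, 3 min and 5 min libraries. Their ratios at 5 min over control were 1.68 (0.593 to 4.79) and 1.35 (0.462 to 3.79), and no difference was detectable at this depth. miR-29b-2-5p of the chromosome 1 hairpin MIR29B2 had 2 counts in the control and 0 in both plasma libraries. By the floor of 3 counts, a count of 0 allows up to 3.10 CPM at 3 min and 4.87 CPM at 5 min, above the 1.91 CPM of the control, so no fold is given. Summed, the 4 passenger arms had 62, 51 and 28 counts in that order, a ratio of 0.761 at 5 min over control (0.469 to 1.21). The arms of the chromosome 7 hairpins made up 80.6% of these counts in the control (68.6 to 89.6), 72.5% at 3 min (58.3 to 84.1) and 71.4% at 5 min (51.3 to 86.8), with intervals that overlapped.

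**Figure D2:**
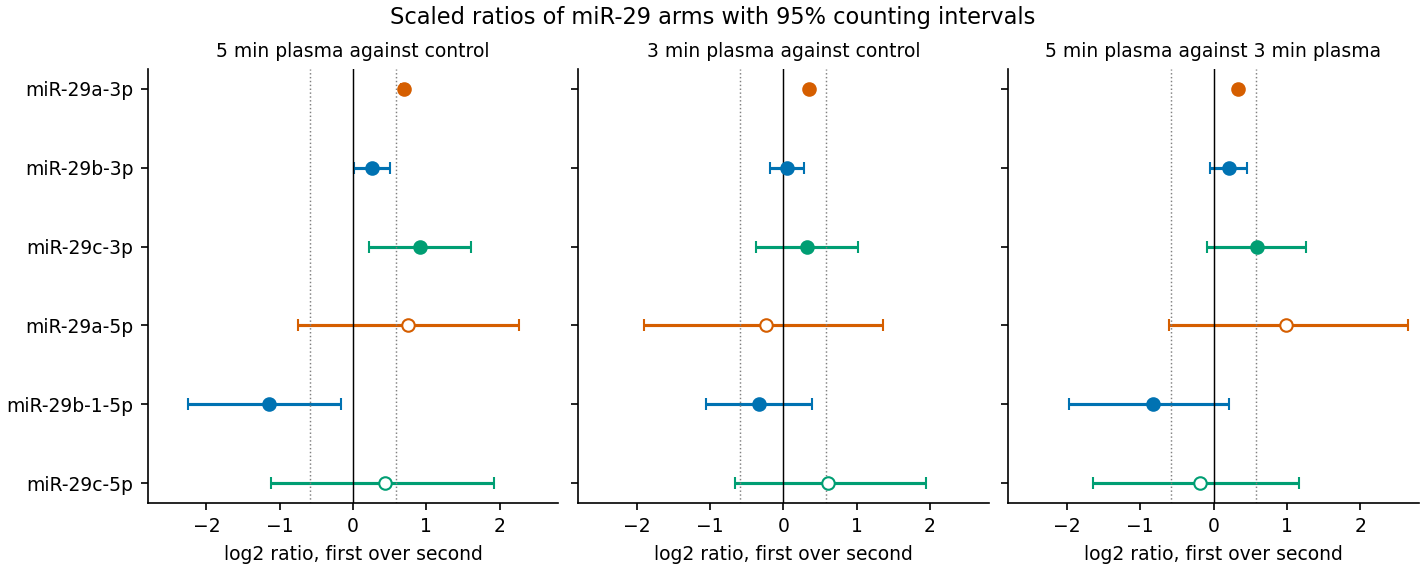
Log2 ratios of the 6 members with a fold, TMM-scaled, for 5 min over control, 3 min over control and 5 min over 3 min (left to right), with exact 95% counting intervals. Filled points passed the count filter, open points did not, and dotted lines mark 1.5-fold. At 5 min miR-29a-3p stands at 0.69 and miR-29c-3p at 0.91 over control, while miR-29b-1-5p stands at -1.15.

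The arms of a hairpin are read from the same library, so their balance does not depend on scaling. miR-29a differed far more from the other members in this balance than it did between libraries. miR-29a had 1296 counts of its 3p arm for each count of its 5p arm in the control (682 to 2834), 1952 at 3 min (947 to 4855) and 1243 at 5 min (654 to 2719). miR-29b, with both of its 5p arms summed, had 7.74 in the control (5.63 to 10.9), 10.5 at 3 min (7.23 to 15.9) and 21.5 at 5 min (11.8 to 43.6). miR-29c had 3.50 (1.70 to 7.92), 2.86 (1.52 to 5.69) and 4.88 (2.25 to 12.1). In each library the interval of miR-29a lay above those of miR-29b and miR-29c, while those of miR-29b and miR-29c overlapped in the control and at 5 min. miR-29a-5p and miR-29c-5p had similar counts, 9 and 10 in the control, although miR-29a-3p had 11660 counts there against 35 of miR-29c-3p.

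**Figure D3:**
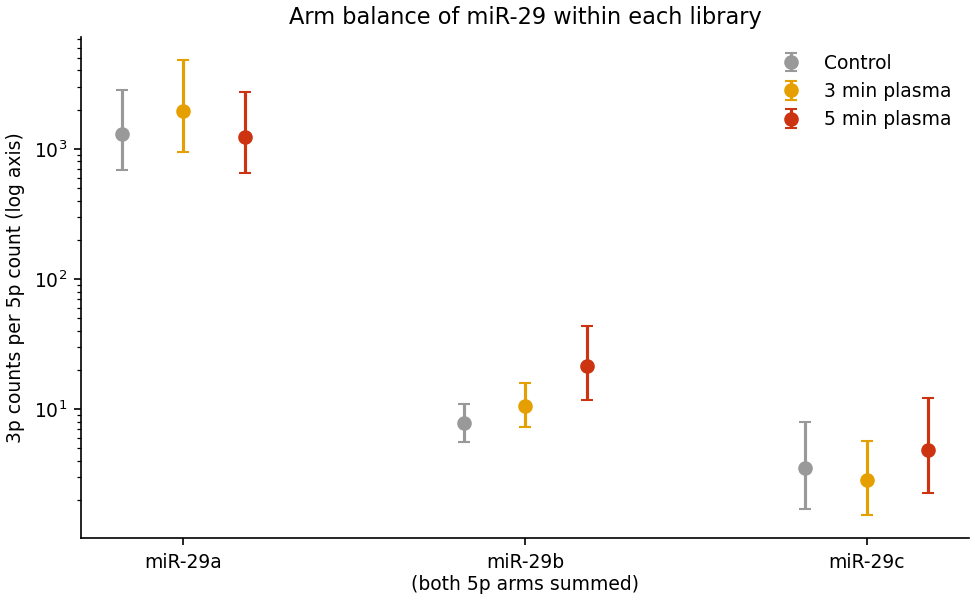
Counts of the 3p arm per count of the 5p arm (log axis) for miR-29a, miR-29b and miR-29c in the control, 3 min and 5 min libraries, with exact 95% counting intervals. miR-29a lies above 1000 in each library, and miR-29b reaches 21.5 at 5 min against 7.74 in the control.

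The balance of miR-29b was 2.77 times as far toward the 3p arm at 5 min as in the control (exact interval 1.37 to 6.08), on 236 and 11 counts of its arms at 5 min against 333 and 43 in the control, and 1.36 times as far at 3 min (0.811 to 2.30). With MIR29B1's 5p arm alone the 5 min value was 2.64 (1.30 to 5.81). For miR-29a it was 0.959 at 5 min (0.337 to 2.73), and for miR-29c 1.39 (0.437 to 4.55), and both intervals included 1. To set this beside other hairpins, the shift toward the more abundant arm was taken for 50 miRNAs. These were the miRNAs whose 3p and 5p arms share a name and both passed the filter, and miR-29b. miR-29b was added with its 5p arms summed, although miR-29b-2-5p was below the filter. Other miRNAs with numbered 5p arms, such as miR-24 with miR-24-2-5p, were not added. At 5 min the balance was at least 2-fold nearer the major arm in 3 of the 50, or 6%, and at least 1.5-fold nearer in 9. Intervals lay above 1 in 12 of the 50 and below 1 in 8. miR-29b was at rank 2 of the 50. Its interval also covered shifts ranked lower, such as 1.73 for let-7a, so the rank is not resolved at this depth. miR-23b, at rank 1, had 2.85 (1.58 to 5.52), with 1949 and 14 counts of its arms at 5 min against 3170 and 65 in the control, followed by miR-27b at 2.13 (1.48 to 3.14). At the other end miR-3065, miR-335 and miR-503 had shifts of 2.73 (1.62 to 4.60), 2.11 (1.52 to 2.94) and 2.05 (0.913 to 4.57) toward the minor arm. The hairpin of miR-3065 lies antisense to that of miR-338, and whether counting used strand is not given in the sources used here. Both are among the 50, as are miR-423 and miR-3184, another antisense pair, so the 50 may not all be separate. Over all 50 the shifts went both ways, 27 toward the major arm and 23 toward the minor arm, with a median log2 shift of 0.02. At 3 min 0 of the 50 were 2-fold nearer the major arm, 30 leaned toward it and 20 away, and miR-29b was at rank 7.

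**Figure D4:**
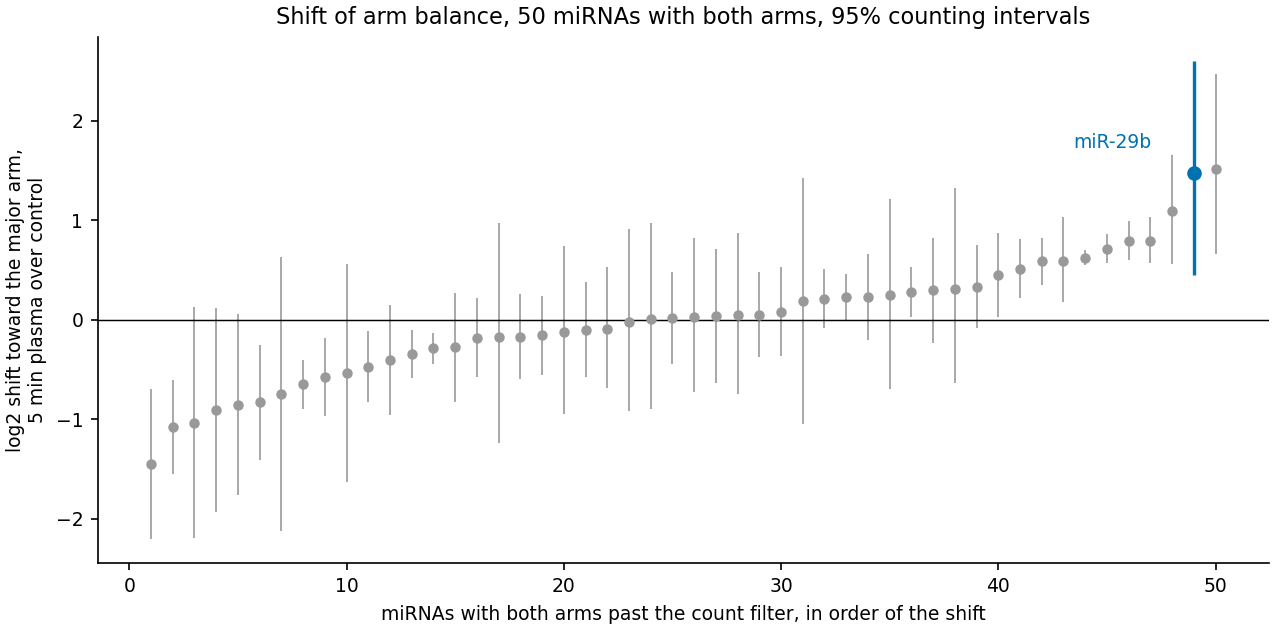
Log2 shift of the arm balance toward the more abundant arm, 5 min plasma over control, for 50 miRNAs, ordered by size, with exact 95% counting intervals. The 50 are miRNAs with both arms past the count filter, and miR-29b, added with its 5p arms summed. miR-29b (blue) stands next to the top at 1.47, and the median of the 50 is 0.02.

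Against all miRNAs past the filter, the members stood on both sides of the median with 5 min of plasma. At least 1.5-fold above control were miR-29a-3p and miR-29c-3p, 2 of the 4 members past the filter, where 17.3% of the 231 miRNAs were. At least 1.5-fold below control was 1 of the 4, miR-29b-1-5p, where 11.7% were, and it was also past 2-fold, where 3.46% were. The median log2 ratio of the 4 members was 0.47, against 0.05 for all 231. Counted from the highest ratio of the 231, miR-29c-3p was at rank 23, miR-29a-3p at 32, miR-29b-3p at 74 and miR-29b-1-5p at 228. With so few members these shares describe the members alone. Scaling by DESeq2 size factors or TMM over all listed miRNAs lowered every 5 min log2 ratio, by 0.21 and 0.17. miR-29a-3p was then 1.40-fold and 1.44-fold higher and no longer past 1.5-fold, while miR-29c-3p, at 1.62-fold with those DESeq2 factors, stayed past it. The split of the 231 at 1.5-fold was 40 higher and 27 lower in the main scaling, 27 and 42 with these DESeq2 factors and 27 and 40 with that TMM. Relative to the median of the 231, which no scaling alters, log2 ratios at 5 min over control were 0.65 for miR-29a-3p, 0.86 for miR-29c-3p, 0.21 for miR-29b-3p and -1.19 for miR-29b-1-5p.

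At 3 min over control 0 of the 4 members were at least 1.5-fold higher, where 6.93% of the 231 were, and 0 were at least 1.5-fold lower, where 5.19% were. Relative to the median, miR-29a-3p stood at 0.30, miR-29c-3p at 0.27, miR-29b-3p at 0.00 and miR-29b-1-5p at -0.38 on the log2 scale.

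The position of miR-29a-3p was clearest among abundant miRNAs, whose counting error is small. Of the 58 miRNAs that averaged 1000 counts or more, it had the highest ratio of 5 min plasma over control, and the order of ratios does not depend on scaling. Next came miR-31-5p at 1.54-fold (1.43 to 1.66), whose interval overlapped that of miR-29a-3p, then miR-221-3p at 1.48-fold. miR-29a-3p and miR-31-5p were the 2 of the 58 past 1.5-fold in the main scaling. At 3 min miR-29a-3p was at rank 4 of the 58, behind miR-221-3p, miR-125a-5p and miR-222-3p.

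The miRNAs nearest to miR-29a-3p in control counts did not share its ratios. Just above it were miR-24-3p, miR-3529-3p and miR-7-5p, with log2 ratios at 5 min over control of -0.02, -0.14 and -0.64. Just below were let-7b-5p, miR-191-5p and miR-30d-5p at -0.27, 0.04 and -0.06. miR-29a-3p, at 0.69, lay above all 6. miR-3529 lies antisense to miR-7, and whether counting used strand is not given, so the separate values of miR-3529-3p and miR-7-5p are uncertain.

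**Figure D5:**
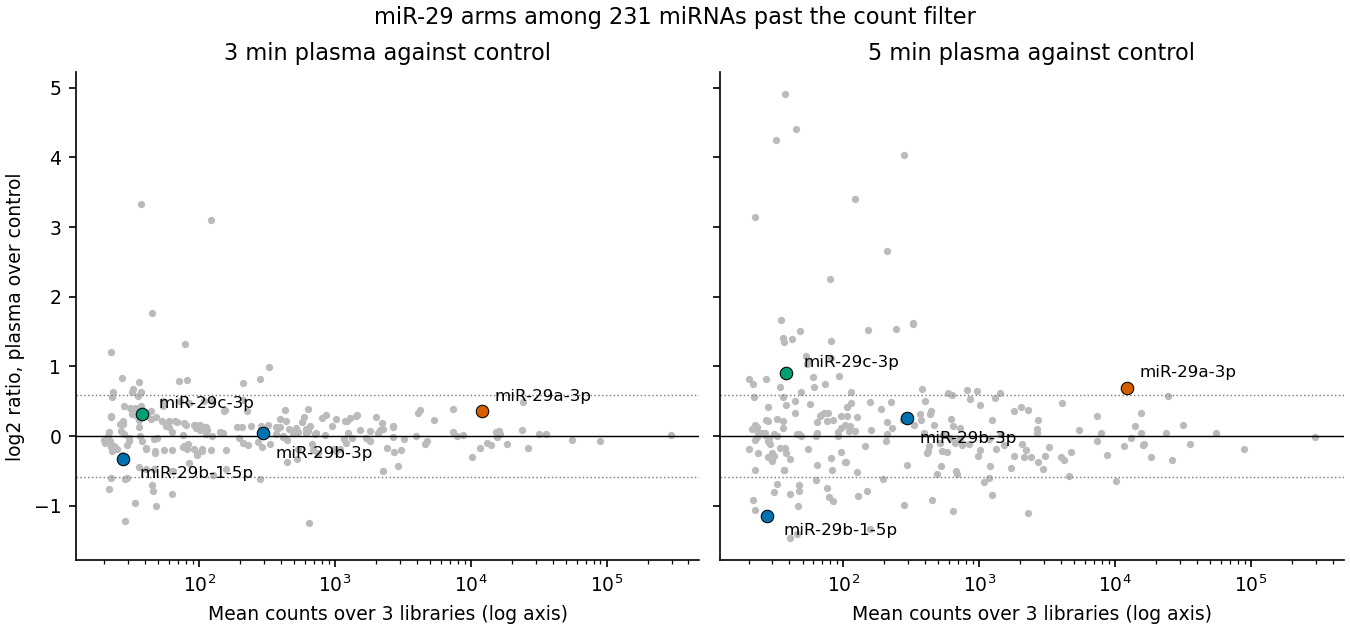
Log2 ratio of plasma over control against mean counts over the 3 libraries (log axis) for 231 miRNAs past the filter, 3 min on the left and 5 min on the right, with the 4 members coloured and dotted lines at 1.5-fold. At 5 min miR-29a-3p stands at 0.69, above the other miRNAs of more than 1000 mean counts, and miR-29b-1-5p at -1.15.

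Between the plasma libraries, 5 min against 3 min, miR-29a-3p was 1.26-fold higher (1.23 to 1.30), the highest ratio of the 58 abundant miRNAs, just ahead of miR-31-5p, also at 1.26-fold (1.17 to 1.36). miR-29b-3p stood at 1.15-fold (0.970 to 1.37) and miR-29c-3p at 1.51-fold (0.943 to 2.40), and both intervals included 1. miR-29b-1-5p had a ratio of 0.566 (0.256 to 1.16), and the balance of miR-29b was 2.04 times as far toward its 3p arm (0.967 to 4.60). At least 1.5-fold higher was 1 of the 4 members past the filter, miR-29c-3p, where 13% of the 231 were, and 1 of the 4 was at least 1.5-fold lower, where 8.66% were.

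The pattern most like that of miR-29a-3p was sought among 108 other miRNAs averaging 200 counts or more, as the distance between log2 ratios over control at 3 min and 5 min. Both ratios share the control library. miR-29a-3p stood at 0.35 and 0.69. The 5 nearest were miR-31-5p at 0.29 and 0.62 (distance 0.09), miR-186-5p at 0.26 and 0.66 (0.10), miR-181a-5p at 0.28 and 0.63 (0.10), miR-20a-5p at 0.39 and 0.59 (0.11) and miR-101-3p at 0.30 and 0.53 (0.17). miR-29b-3p, the other member averaging 200 counts or more, was not among them.

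Other miRNAs tied in the literature to the same targets or processes were described by list. Over all 231 miRNAs past the filter, 17.3% were at least 1.5-fold higher and 11.7% lower at 5 min over control, and 6.93% and 5.19% at 3 min. Of 17 listed as matrix-linked, 8 passed the filter, and at 5 min 2 of them were at least 1.5-fold above control and 0 below, with a median log2 ratio of 0.17. Those were miR-199b-5p, with 59 counts at 5 min against 61 in the control and a log2 ratio of 0.70, and miR-199a-5p, with 109 against 118 and 0.64, near-identical paralogs whose separate values are uncertain. With DESeq2 size factors or TMM over all listed miRNAs, 0 of the 8 reached 1.5-fold, and the median was -0.04 and 0.00. Of 7 miRNAs linked to DNA methyltransferases 6 passed, 0 reached 1.5-fold either way and the median was 0.27, or 0.06 and 0.10 under those scalings. The most abundant of them were miR-148b-3p, which targets DNMT mRNAs, at -0.04 and miR-101-3p, which targets the histone methyltransferase EZH2, at 0.53.

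All 5 members of the miR-30 family, which with miR-29 represses the cell-cycle factor B-MYB in senescent cells, passed the filter. At 5 min 1 of them was at least 1.5-fold above control, miR-30b-5p at a log2 ratio of 0.68, 0 were below, and the median was 0.15. With either of those scalings 0 of the 5 reached 1.5-fold, and the median was -0.06 and -0.02. Of 6 MCL1-linked miRNAs 3 passed and 0 reached 1.5-fold, with a median of 0.50, or 0.29 and 0.33 under those scalings. The most abundant were miR-125b-5p at -0.11 and miR-101-3p at 0.53, and the other was miR-16-5p at 0.50. Of 9 p53-linked miRNAs 6 passed and 4 were at least 1.5-fold higher, where 17.3% of the 231 were, with a median of 1.24. The count of 4 was the same under both of those scalings, with medians of 1.03 and 1.07. The 4 were miR-215-5p, miR-34c-5p, miR-194-5p and miR-192-5p at 3.15, 1.36, 1.39 and 1.12. miR-107 and miR-143-3p, which also passed the filter, stood at 0.22 and 0.23. miR-34a-5p, below the filter, had 17, 21 and 18 counts in the control, 3 min and 5 min libraries. miR-215-5p had 8, 17 and 42 counts in the control, 3 min and 5 min libraries, and passed the filter only through its 5 min count. The count of 4 and the median thus include a member that the filter admitted through the library where it is high. The median of all 231 was 0.05. At 3 min 0 of the matrix-linked, miR-30 and MCL1-linked members reached 1.5-fold over control, 1 of the methyltransferase-linked was lower, miR-148a-3p at -1.21, and 2 of the p53-linked were higher, miR-215-5p and miR-34c-5p at 1.21 and 0.81.

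Markers of other cell types moved in part with the guide arms. The 6 fibroblast markers summed to 4364, 5016 and 3619 counts in control, 3 min and 5 min, mostly from miR-199a-3p. Their scaled ratio was 1.40 at 5 min (1.34 to 1.46) and 1.25 at 3 min (1.20 to 1.31) over control. Of these counts miR-199a-3p gave 4098, 4729 and 3392, while miR-214-3p had at most 1 count and miR-145-5p at most 2. Its paralog miR-199b-3p, with 2073, 2303 and 1653 counts, was not on the list. How reads that match both were assigned is not given, so the count of miR-199a-3p is uncertain. The 6 epithelial markers summed to 15, 24 and 40 counts, a scaled ratio of 4.49 at 5 min over control (2.43 to 8.76). The rise lay in miR-200b-3p at 6, 13 and 20 counts and miR-200c-3p at 6, 8 and 17. miR-200a-3p had 2 counts in each library, miR-141-3p 1, 0 and 1, and miR-429 0, 1 and 0. The 5 muscle markers summed to 15, 17 and 28 counts, a ratio of 3.15 (1.62 to 6.34). Among them counts rose only in miR-1-3p, at 0, 3 and 15. miR-499a-5p had 14, 14 and 13 counts, miR-133a-3p 1, 0 and 0, and miR-133b 0 in all 3 libraries. The 6 blood markers summed to 14, 18 and 10 counts, a ratio of 1.20 with an interval of 0.478 to 2.91 that included 1. None of the epithelial, muscle or blood markers passed the filter. The miRNAs below the filter together held 0.169% of counts in the control, 0.180% at 3 min and 0.295% at 5 min. miR-205-5p, miR-206 and miR-223-3p were at 0 in all 3 libraries. Their part in the miR-29 ratios was not tested. Plasma exposure, culture and library are the same division of the samples here and cannot be told apart.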

How the data were processed

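The authors deposited raw read counts for each mature miRNA, whole numbers without normalization, in 1 file per library. Per the labels' protocols, RNA was taken up in Trizol and converted with a NEBNext Multiplex Small RNA kit. The submitters' processing notes list edgeR, Bowtie2 and bedtools without versions or roles. Not given in the sources used here are the genome build, the miRNA annotation, trimming, the handling of strand and of reads that match several miRNAs. PCR copies were not separated by molecular identifiers.

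Effective library sizes came from TMM in edgeR 4.0.16 (R 4.3.3) over the 231 miRNAs averaging 20 counts or more, with factors of 1.000, 0.991 and 1.009 for control, 3 min and 5 min. The 2357 other miRNAs held 0.169% of the control library, 0.180% of the 3 min library and 0.295% of the 5 min library. Ratios carry exact (Clopper-Pearson) 95% intervals from the binomial split of counts, CPM exact Poisson intervals, and arm balances between libraries exact conditional intervals. Counting error is all that the intervals and the floors of 3 counts cover. Since a group held 1 library, edgeR's test could not be used. Called means past a fold of 1.5 or 2. Alternatives were library totals, other TMM and DESeq2 1.42.0 scalings, other filters and summed arms. The functions were tested on simulated counts.

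Sequences and positions came from RefSeq (GRCh38.p14), in which all 7 members and 2281 of 2588 listed miRNAs matched by name, and overlaps from GENCODE on GRCh38. Named miRNAs beside the members were the 5 nearest in pattern and 3 either side in control counts, the 3 largest arm shifts each way, and, per list, up to 3 members past 1.5-fold after 5 min with the largest bound, or else the 2 most abundant. Any further miRNA was named once its values were known. Members and lists were chosen with earlier results of these data known. Python 3.11.15 was used with scipy 1.17.1, numpy 2.4.6, matplotlib 3.10.9 and pandas 2.3.3.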

Additional observations from a re-analysis of the deposited data

How the results depend on the processing

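Scaling moved the ratio of the summed guide arms but not its direction. The summed guide arms after 5 min over control, 1.61-fold in the main scaling, were 1.43-fold with TMM over all listed miRNAs or with no filter and 1.39-fold with DESeq2 size factors over all listed miRNAs. After 3 min over control, 1.27-fold, they were 1.22-fold with TMM over all listed miRNAs, with no filter or with a filter at 100 counts, and 1.21-fold with those DESeq2 factors. For 5 min over 3 min, 1.26-fold, they were 1.17-fold with TMM over all listed miRNAs or no filter, 1.15-fold with those DESeq2 factors and 1.32-fold with the filter at 100. The members at least 1.5-fold higher after 5 min over control, 2 in the main scaling, were 1 under either scaling over all listed miRNAs, 0 at a 2-fold limit and 3 when members below the filter were counted. After 3 min over control they were 0, and 1 with members below the filter. For 5 min over 3 min they were 1, then 0 under either scaling over all listed miRNAs, 0 at 2-fold and 2 with members below the filter. The share of miR-29a-3p without miR-29c-3p was 97.7% after 3 min and 97.9% after 5 min. The balance of miR-29a for 5 min over 3 min, 0.637 (0.201 to 1.92), was 1.01 (0.508 to 2.04) with miR-29c added, and both intervals included 1. Of 114 values of single members under these alternatives, 103 stayed within the main counting interval, 11 did not, all of miR-29a-3p, and 0 of those past 1.5-fold changed sign. TMM over all listed miRNAs and TMM with no filter gave the same values and are counted separately in these tallies. No paired analysis was possible because each group holds 1 library.

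The depth of 615645 counts after 5 min, and counts of 41 and fewer for every passenger arm, limit what can be seen of those arms.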
